A study of Mus musculus with 36 samples.

Results

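The 10 genes described here encode small leucine-rich proteoglycans (SLRPs): *Bgn* (biglycan), *Dcn* (decorin), *Aspn* (asporin), *Fmod* (fibromodulin), *Lum* (lumican), *Prelp*, *Omd* (osteomodulin), *Kera* (keratocan), *Ogn* (osteoglycin) and *Epyc* (epiphycan). They were chosen by gene symbol from the 56246 genes of the table, and each of the 10 symbols had a single entry. Bulk RNA was sequenced from the tibia of 36 mice aged 6 months, on the C57BL/6J background, in 3 groups of 12 with 6 males and 6 females each. Wild-type mice carried no transgene. The saline-treated and the ABE-treated mice were LMNA G608G/G608G (*LMNA* G/G) mice, a model of Hutchinson-Gilford progeria in which both copies of a human *LMNA* transgene on a bacterial artificial chromosome hold the progeria mutation, so saline-treated mice and ABE-treated mice share that transgene and wild-type mice lack it. Saline, or an adenine base editor (ABE) carried by a pair of AAV9 vectors, was injected behind the eye 14 days after birth. For wild-type mice the labels give no injection (NT), so each comparison with wild-type takes in the injection as well as the transgene. Epiphyses and marrow had been removed, so the samples were mostly cortical bone with whatever periosteum and attached tissue remained.

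SLRPs are secreted proteins of the extracellular matrix with a core of leucine-rich repeats that binds collagen fibrils. They set the spacing and diameter of the fibrils in bone, tendon, cornea and skin, and several bind growth factors of the TGF-beta and BMP families. Biglycan and decorin are class I members and carry chains of chondroitin or dermatan sulfate, whereas asporin, in the same class, is not a classical proteoglycan. Fibromodulin, lumican, PRELP, osteomodulin and keratocan are class II members, many of which carry keratan sulfate, and osteoglycin and epiphycan are class III members. Mice that lack biglycan have low bone mass, and osteomodulin is made by cells of the osteoblast lineage. Decorin, fibromodulin and lumican are abundant in tendon and in fibrous sheets such as periosteum, and epiphycan is a product of cartilage.

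Most of the members lie next to each other in the genome (GRCm38, GENCODE annotation). *Dcn* (chr10:97479609-97518143), *Lum* (chr10:97565128-97572703), *Kera* (chr10:97606879-97613692) and *Epyc* (chr10:97644068-97682454) follow each other on the plus strand within 202.846 kb. *Aspn* (chr13:49544443-49567565), *Omd* (chr13:49582462-49592822) and *Ogn* (chr13:49608046-49624501) stand in a row on the plus strand behind *Ecm2*, with 14.896 kb between *Aspn* and *Omd* and 15.223 kb between *Omd* and *Ogn*. *Prelp* (chr1:133910304-133921414, minus strand) and *Fmod* (chr1:134037254-134048277, plus strand) are 115.839 kb apart, and *Bgn* (chrX:73483602-73495933, plus strand) has no other member beside it. *Cenpp*, a centromere protein gene with a mean of 0.90 scaled TPM, spans *Aspn*, *Omd* and *Ogn* on the opposite strand. The library kit keeps strand, but the strand setting of the counting is not given in the sources used here, so reads of *Cenpp* exons could not be told apart from those 3 genes with certainty.

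RefSeq promoter windows on GRCm38.p6 were at hand for 8 of the 10 members; *Dcn* and *Lum* were not matched. The windows of the 3 neighbours on chromosome 13 are shown because the levels of these genes deviated together from mouse to mouse, and that of *Bgn* because it was the most abundant member. Each holds the 250 bases before the RefSeq start, 5′ to 3′ on the gene's own strand. Capitals mark matches on either strand to the motifs whose letters and shares are given after the windows.
*Aspn*, chr13:49544193-49544442: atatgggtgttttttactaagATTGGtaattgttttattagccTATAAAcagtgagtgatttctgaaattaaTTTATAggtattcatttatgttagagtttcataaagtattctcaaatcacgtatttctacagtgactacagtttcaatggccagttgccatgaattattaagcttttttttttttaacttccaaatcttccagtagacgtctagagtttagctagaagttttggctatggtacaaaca
*Omd*, chr13:49582212-49582461: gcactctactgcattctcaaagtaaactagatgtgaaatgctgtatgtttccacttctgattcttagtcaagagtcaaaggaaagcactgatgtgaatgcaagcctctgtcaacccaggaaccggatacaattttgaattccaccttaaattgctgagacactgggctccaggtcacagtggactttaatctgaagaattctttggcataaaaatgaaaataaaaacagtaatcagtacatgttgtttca
*Ogn*, chr13:49607765-49608014: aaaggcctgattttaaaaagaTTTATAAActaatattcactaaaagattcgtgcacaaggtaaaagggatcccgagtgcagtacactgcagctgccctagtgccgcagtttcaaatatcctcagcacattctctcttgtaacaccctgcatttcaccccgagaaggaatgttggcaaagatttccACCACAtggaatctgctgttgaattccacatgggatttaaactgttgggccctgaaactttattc
*Bgn*, chrX:73483351-73483600: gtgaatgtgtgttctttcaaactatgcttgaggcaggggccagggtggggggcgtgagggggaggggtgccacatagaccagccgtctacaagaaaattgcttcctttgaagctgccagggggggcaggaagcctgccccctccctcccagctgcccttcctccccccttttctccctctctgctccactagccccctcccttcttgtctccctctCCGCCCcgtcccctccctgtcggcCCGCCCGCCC
The TATA box letters TATAAA were found in the *Aspn* and *Ogn* windows, in *Ogn* as overlapping matches on both strands that begin 229 and 227 bases before the start, and in 12.4% of all 32851 promoter windows of this length. The CCAAT box was found in *Aspn*, *Kera* and *Prelp* and in 33.8% of all windows. The GC box GGGCGG was found only in the *Bgn* window among the 8, in 3 places of which 2 overlap, and in 32.7% of all windows. A RUNX-type motif, TGTGGT, was found in *Ogn* alone among them, 65 bases before the start, and in 14% of all windows, and the AP-1-type motif TGANTCA in none of the 8 and in 6.75% of all. These are matches of letters and not sites shown to be bound. The G and C content of the windows was 30.0% in *Aspn*, 38.4% in *Omd*, 42.0% in *Ogn* and 64.4% in *Bgn*.

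Levels are given as scaled TPM, that is, TPM (reads corrected for gene length and library total) divided by a factor for each library that puts the median gene on the same level in all 36. Libraries had 48064068 to 116206662 reads on genes. The factors were 0.93 to 1.56 in wild-type, 0.83 to 1.31 in saline-treated and 0.22 to 1.31 in ABE-treated mice, and ABE replicate 1, a female, stood apart with the factor of 0.22 against at least 0.606 in the others. No library was left out of the values below, and all calls of members were the same without ABE replicate 1. The wild-type mice have a numbering series of their own, so a batch, the injection and the genotype cannot be told apart. In the values of whole tissue, fewer cells of a type and less RNA per cell cannot be told apart. Groups were compared with limma on log2(scaled TPM + 0.5), with a term for sex and the 36 libraries fitted together, over 15933 genes whose mean reached 0.5 scaled TPM, and a gene was called at a Benjamini-Hochberg adjusted p under 0.05. Log2 fold changes are on this scale, which understates changes of low genes. *Kera* and *Epyc* lay under that limit and are described by their reads, so 8 of the 10 members were tested.

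The tissue markers differed between the groups. Beside the counts below, 52.4% of all genes were called in saline and 70.2% in ABE against wild-type, and 48.3% in ABE against saline. A count near these shares says nothing particular about a list. The 8 cartilage and joint surface markers summed to 61.4 to 194 scaled TPM in wild-type, 4.02 to 27.1 in saline-treated and 7.20 to 31.97 in ABE-treated mice. *Prg4*, whose means are given with *Epyc* below, made up most of the wild-type sum. All 4 that could be tested were lower in both *LMNA* G/G groups than in wild-type, and in ABE against saline 2 were higher and 0 lower. The 12 skeletal muscle markers summed to a median of 1065 (range 215 to 3217) in wild-type, 2214 (340 to 8238) in saline-treated and 6551 (1141 to 13684) in ABE-treated mice, and 9, 12 and 10 of the 12 were higher in saline against wild-type, ABE against wild-type and ABE against saline. Markers of osteocytes summed to 10.8 to 50.2 in wild-type, 174 to 499 in saline-treated and 178 to 353 in ABE-treated mice. All 6 tested were higher in both comparisons with wild-type, and in ABE against saline 0 were higher and 1 lower. Of the 12 markers of tendon, ligament and periosteal fibroblasts, 10 were tested: 2 were higher and 4 lower in saline against wild-type, 5 were higher and 3 lower in ABE against wild-type, and 7 were higher and 0 lower in ABE against saline. Their sum was 27.0 to 79.0 in wild-type, 17.7 to 50.1 in saline-treated and 30.0 to 98.9 in ABE-treated mice. Sums of the osteoblast markers overlapped across the groups (743 to 3127, 521 to 2506 and 797 to 2427). Most of the wild-type sum came from *Col1a1* and *Col1a2* (means of 1044 and 263 scaled TPM). Of the 8 osteoblast markers, 3 were higher and 0 lower in each comparison with wild-type. In ABE against saline 1 was higher and 1 lower. Of the marrow cell lists, 2 of 8 neutrophil markers were higher in saline against wild-type and 7 of 8 lower in ABE against saline (summed medians of 1494, 2566 and 1586 in the order wild-type, saline, ABE). Of 6 B cell markers, 5 were lower in saline and 6 in ABE against wild-type, and of 6 erythroid markers, 1 and 4 were lower. Of 6 osteoclast markers tested, 6 were higher in saline against wild-type, and 4 were higher and 0 lower in ABE against wild-type. In ABE against saline 5 of them were lower. Of 3 adipocyte markers tested, 3 were lower, and of 4 of smooth muscle and pericytes, 3 higher, in ABE against saline, and of 5 endothelial markers, 3 were higher in saline and 5 in ABE against wild-type. No marker of these lists was at 0 throughout a group. The part of these tissues in the SLRP levels was not tested beyond the covariates given below.

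*Bgn* made up 36.6% ± 5.05 (SD, n = 12) of the summed level of the 10 genes in wild-type mice. Its share was 52.8% ± 8.28 after saline and 37.5% ± 10.6 after ABE. The summed level was 52.0 ± 17.4, 64.1 ± 17.9 and 87.7 ± 27.9 scaled TPM in the order wild-type, saline, ABE. Mean *Bgn* was 18.6, 33.0 and 31.0, so on this scale the lower share after ABE went with a higher sum and not with a return of *Bgn* to its wild-type level. On TPM as deposited, without the scaling, the means were 22.3, 35.2 and 27.9. *Bgn* in ABE against wild-type lost its call in 3 of 15 alternative fits by limma. These were TPM as deposited (adjusted p = 0.55), females alone (0.093) and the marrow cell lists as covariates (0.053). By mean level in wild-type mice the order was *Bgn*, *Dcn*, *Fmod*, *Lum*, *Prelp*, *Ogn*, *Aspn*, *Omd*, *Kera* and *Epyc*. *Bgn* stood above *Dcn* in every library, since the lowest ratio of *Bgn* to *Dcn* in a library was 1.47. *Dcn*, *Fmod* and *Lum* had overlapping ranges (6.01 to 15.6, 2.66 to 18.3 and 3.08 to 10.1 scaled TPM), as had *Ogn* and *Aspn* (0.99 to 4.12 and 0.60 to 4.05).

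**Figure D1:**
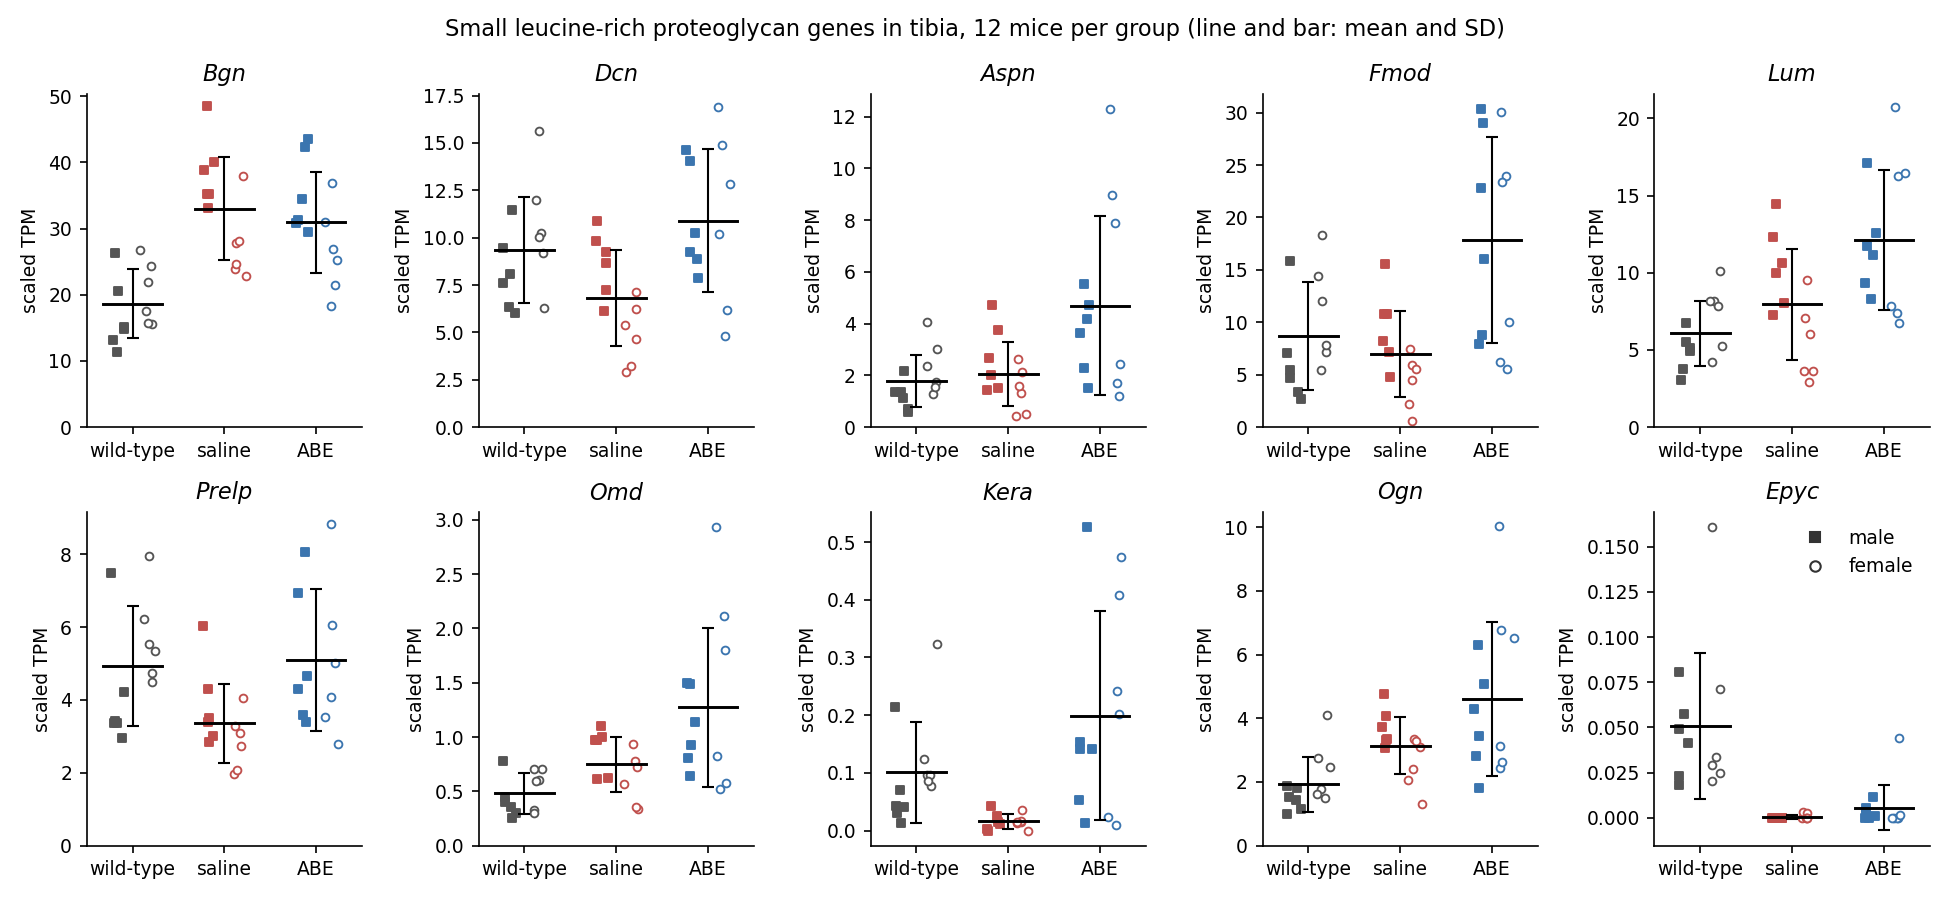
Scaled TPM (linear axes) of the 10 genes in the 12 mice of each group, with filled squares for males, open circles for females, and the mean and SD as black line and bar. *Bgn* sits between 22.8 and 48.5 in saline-treated mice against 11.4 to 26.8 in wild-type, and *Epyc* is near 0 in both groups of *LMNA* G/G mice apart from 1 ABE-treated female at 0.044 and 1 ABE-treated male at 0.012.

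Saline-treated *LMNA* G/G bone was compared with bone of uninjected wild-type mice. *Bgn* and *Ogn* were higher and *Dcn* and *Prelp* lower, so the family did not move as one. Of the 8 members tested 4 were called (2 higher, 2 lower), beside 52.4% of all genes called, 27.7% higher and 24.6% lower. The members' share is near that background, so the count says nothing particular about the family.

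*Bgn*, the main class I proteoglycan of bone, measured 11.4 to 26.8 scaled TPM in wild-type (median 16.7), 22.8 to 48.5 in saline-treated (median 34.2) and 18.3 to 43.6 in ABE-treated mice (median 30.9). All 12 saline-treated and all 12 ABE-treated mice lay above the wild-type median, and 9 of each group above the highest wild-type mouse. The log2 fold change was 0.82 (SE 0.14, adjusted p = 1.66e-05) in saline and 0.73 (SE 0.14, adjusted p = 4.05e-05) in ABE against wild-type. Between ABE and saline it was -0.096, with a 95% interval from -0.39 to 0.20 (adjusted p = 0.61). On TPM as deposited, without the scaling, ABE against saline gave -0.47 (SE 0.23, adjusted p = 0.095) and ABE against wild-type 0.16 (adjusted p = 0.55).

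*Dcn*, which binds collagen fibrils and TGF-beta, measured 6.01 to 15.6 scaled TPM in wild-type (median 9.32), 2.92 to 10.9 in saline-treated (median 6.68) and 4.82 to 16.9 in ABE-treated mice (median 10.2). The groups overlapped, with 10 of 12 saline-treated mice below the wild-type median and 10 of 12 ABE-treated mice above the saline median. It fell by 0.47 on the log2 scale in saline (value -0.47, SE 0.20, adjusted p = 0.044) and was 0.65 higher in ABE than in saline (SE 0.20, adjusted p = 0.0081). Against wild-type, ABE gave 0.18 (95% interval -0.22 to 0.58, adjusted p = 0.43). The call in saline rests on single mice: it was lost when any of 13 of the 36 libraries was left out (wild-type replicates 1, 3, 4, 6, 9, 10 and 12 and saline replicates 1, 2, 4, 6, 9 and 12), with adjusted p of 0.051 to 0.092.

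*Aspn*, which is found in periosteum and tendon and binds TGF-beta, measured 0.60 to 4.05 scaled TPM in wild-type (median 1.47), 0.44 to 4.73 in saline-treated (median 1.80) and 1.20 to 12.3 in ABE-treated mice (median 3.91). The spread was widest in ABE-treated females, where 3 mice lay between 7.88 and 12.3 and the other 3 between 1.20 and 2.43. The log2 fold change was 0.12 in saline (SE 0.31, adjusted p = 0.77), 1.02 in ABE against wild-type (SE 0.31, adjusted p = 0.0042) and 0.91 in ABE against saline (SE 0.31, adjusted p = 0.017).

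*Fmod*, a keratan sulfate proteoglycan abundant in tendon, measured 2.66 to 18.3 scaled TPM in wild-type (median 7.13), 0.56 to 15.6 in saline-treated (median 6.54) and 5.54 to 30.3 in ABE-treated mice (median 19.4). Of the 12 ABE-treated mice, 7 lay above the highest saline-treated mouse, and the remaining 5 fell among the saline values. The log2 fold change of ABE against saline, 1.33 (SE 0.37, adjusted p = 0.0050), had the greatest size among the members tested in that comparison. Against wild-type *Fmod* was 0.98 higher in ABE (SE 0.37, adjusted p = 0.020), and saline gave -0.36 (95% interval -1.12 to 0.40, adjusted p = 0.44).

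*Lum*, which with fibromodulin binds collagen fibrils, measured 3.08 to 10.1 scaled TPM in wild-type (median 5.39), 2.90 to 14.5 in saline-treated (median 7.66) and 6.76 to 20.7 in ABE-treated mice (median 11.4). All 12 ABE-treated mice were above the wild-type median. It was 0.93 higher on the log2 scale in ABE against wild-type (SE 0.23, adjusted p = 0.00056) and 0.63 higher against saline (SE 0.23, adjusted p = 0.023; 0.051 without saline replicate 1), and saline gave 0.30 against wild-type (SE 0.23, adjusted p = 0.28).

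*Prelp*, a proline- and arginine-rich member that links matrix to basement membrane, measured 2.95 to 7.95 scaled TPM in wild-type (median 4.61), 1.97 to 6.02 in saline-treated (median 3.19) and 2.79 to 8.82 in ABE-treated mice (median 4.47). In 11 of 12 saline-treated mice it was below the wild-type median. The log2 fold change was -0.48 in saline (SE 0.18, adjusted p = 0.021), 0.51 in ABE against saline (SE 0.18, adjusted p = 0.017) and 0.030 in ABE against wild-type (95% interval -0.33 to 0.39, adjusted p = 0.89).

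*Omd* and *Ogn*, neighbours on chromosome 13, were both higher in ABE-treated than in wild-type mice, and *Ogn* also in saline-treated mice. *Omd*, an osteoblast lineage product that binds hydroxyapatite, measured 0.26 to 0.78 scaled TPM in wild-type (median 0.42), 0.33 to 1.10 in saline-treated (median 0.75) and 0.52 to 2.94 in ABE-treated mice (median 1.03). Its log2 fold change was 0.34 in saline (SE 0.16, adjusted p = 0.076), 0.78 in ABE against wild-type (SE 0.16, adjusted p = 7.85e-05) and 0.44 in ABE against saline (SE 0.16, adjusted p = 0.026). The first was called without saline replicate 1, saline replicate 4 or ABE replicate 6 (adjusted p 0.043 to 0.047), and the last was lost without saline replicates 1 or 4 or ABE replicates 5 or 6 (0.052 to 0.056). In the other 14 fits, *Omd* in saline was called in 5 (adjusted p 0.0047 to 0.049: males alone, only the groups compared, a pseudocount of 0.1, array weights and limma-voom). In ABE against saline its call was lost in 6 of the 14 (0.054 to 0.40: TPM as deposited, only the groups compared, either sex alone and both kinds of marker covariate). *Ogn*, also called mimecan, measured 0.99 to 4.12 scaled TPM in wild-type (median 1.70), 1.31 to 4.77 in saline-treated (median 3.30) and 1.80 to 10.03 in ABE-treated mice (median 3.87). It was 0.61 higher in saline (SE 0.21, adjusted p = 0.014) and 1.0 higher in ABE against wild-type (SE 0.21, adjusted p = 7.49e-05), with 11 and 12 of 12 mice above the wild-type median, and ABE against saline gave 0.39 (95% interval -0.030 to 0.82, adjusted p = 0.12).

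**Figure D2:**
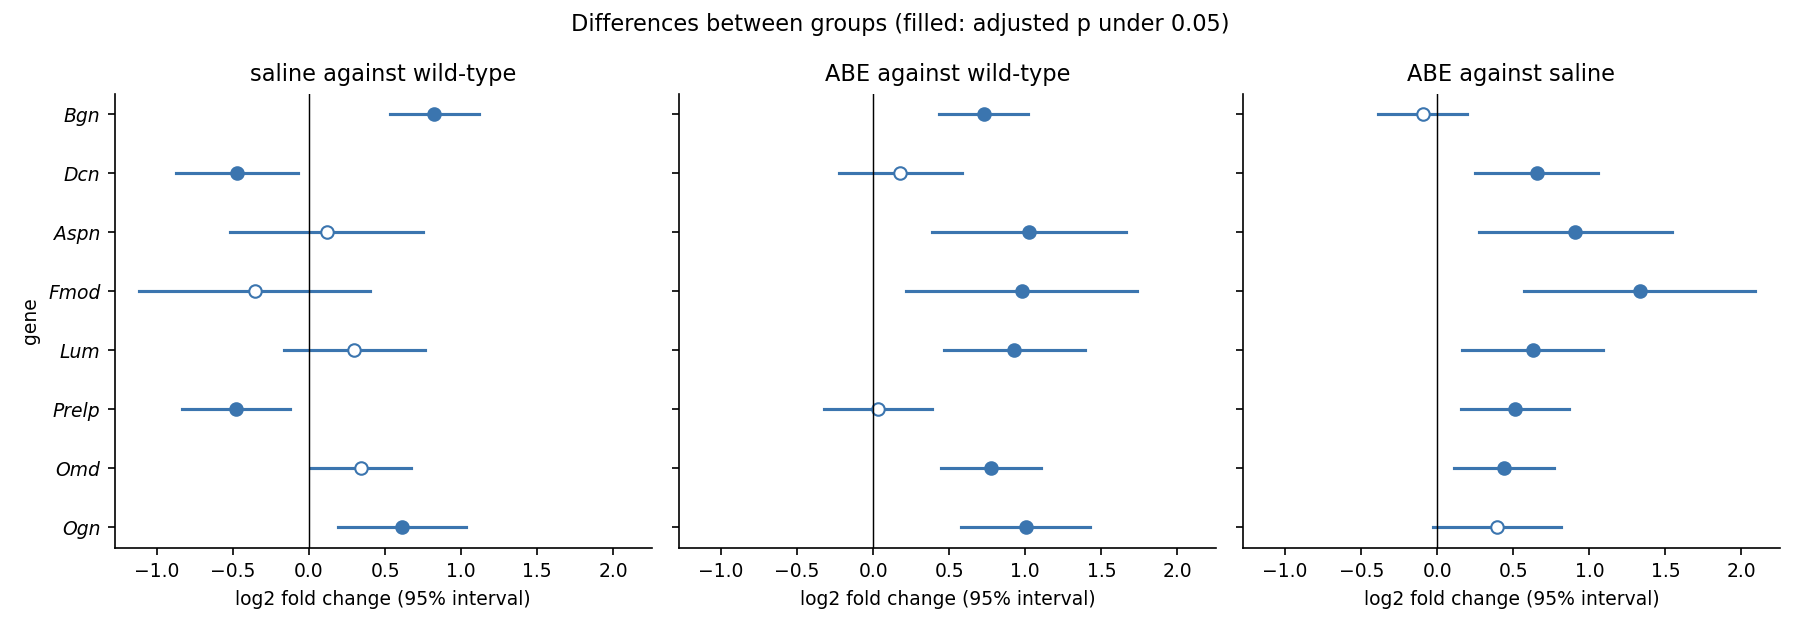
Log2 fold change (scaled TPM + 0.5) with its 95% interval for the 8 members tested in the 3 comparisons, filled where the adjusted p was under 0.05. *Bgn* is at 0.82 and 0.73 against wild-type and at -0.096 between ABE and saline, and *Fmod* has the highest point of the last panel at 1.33.

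Against wild-type, 6 of the 8 members were higher in ABE-treated mice and 0 lower, beside 70.2% of all genes called, 35.0% higher and 35.2% lower. Between ABE-treated and saline-treated mice, 6 of the 8 were higher (*Dcn*, *Aspn*, *Fmod*, *Lum*, *Prelp* and *Omd*) and 0 lower, beside 48.3% of all genes called, 23.2% higher and 25.1% lower. The comparisons share their wild-type or saline mice, so their calls are not independent of each other. For *Dcn* and *Prelp* the ABE mean (10.9 ± 3.76 and 5.10 ± 1.95, SD, n = 12) lay above the wild-type mean (9.36 ± 2.80 and 4.92 ± 1.64), with neither called in that comparison. The saline mean was below both (6.80 ± 2.53 and 3.36 ± 1.08). In the fit of females alone that fall in saline was -1.04 and -0.89. In males alone saline against wild-type gave 0.092 and -0.069 (limma, adjusted p = 0.69 and 0.82). The difference between the sexes was called for neither gene (limma interaction term, adjusted p = 0.075 and 0.14). Male *Dcn* means were 8.16 in wild-type and 8.67 in saline-treated mice. For *Aspn*, *Fmod*, *Lum* and *Omd* the ABE mean exceeded both of the others (*Fmod* 17.8 ± 9.80 against 8.70 ± 5.19 in wild-type and 6.97 ± 4.08 in saline).

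Composition of the tissue was entered as covariates. Once the mean level of the skeletal muscle list was a covariate, 0 of 8 members were called in ABE against saline (0 at an unadjusted p under 0.05), and with the neutrophil, B cell and erythroid lists 0 of 8 (1 unadjusted), against 6 without them. These fits called 9.23% and 7.56% of all genes in that comparison, so 0 of 8 is near their background. *Fmod* was at 0.53 (SE 0.29, adjusted p = 0.23) with the muscle list and 0.74 (SE 0.40, adjusted p = 0.24) with the marrow lists. Against wild-type the muscle covariate left only *Bgn* called in ABE (0.64, SE 0.20, adjusted p = 0.016), beside 33.7% of all genes, and turned *Aspn* (-0.14) and *Fmod* (-0.60) negative, neither of them called. In saline against wild-type, where 45.1% of all genes were called, it left *Bgn* (0.78), *Dcn* (-0.76) and *Prelp* (-0.71) called, removed *Ogn* (0.37, adjusted p = 0.16) and added *Fmod* at -1.12 (SE 0.29, adjusted p = 0.0020). The marrow lists left *Bgn* alone called in saline against wild-type (0.73, SE 0.24, adjusted p = 0.023), beside 31.4% of all genes. In ABE against wild-type they left *Omd* and *Ogn* (0.69 and 0.98), beside 46.0%. *Bgn* in saline was called in each of these fits. The covariates differ between the groups themselves, so what they remove cannot be divided between tissue and treatment.

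On TPM as deposited, without the factors, the median of all genes shifted to -0.13, -0.42 and -0.27 in saline against wild-type, ABE against wild-type and ABE against saline. There *Bgn* (0.63), *Dcn* (-0.66) and *Prelp* (-0.66) were called in saline, *Omd* (0.49) and *Ogn* (0.55) in ABE against wild-type, and *Fmod* alone in ABE against saline (0.97, adjusted p = 0.045). Of all genes 29.5%, 67.8% and 44.2% were called in the same order.

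**Figure D3:**
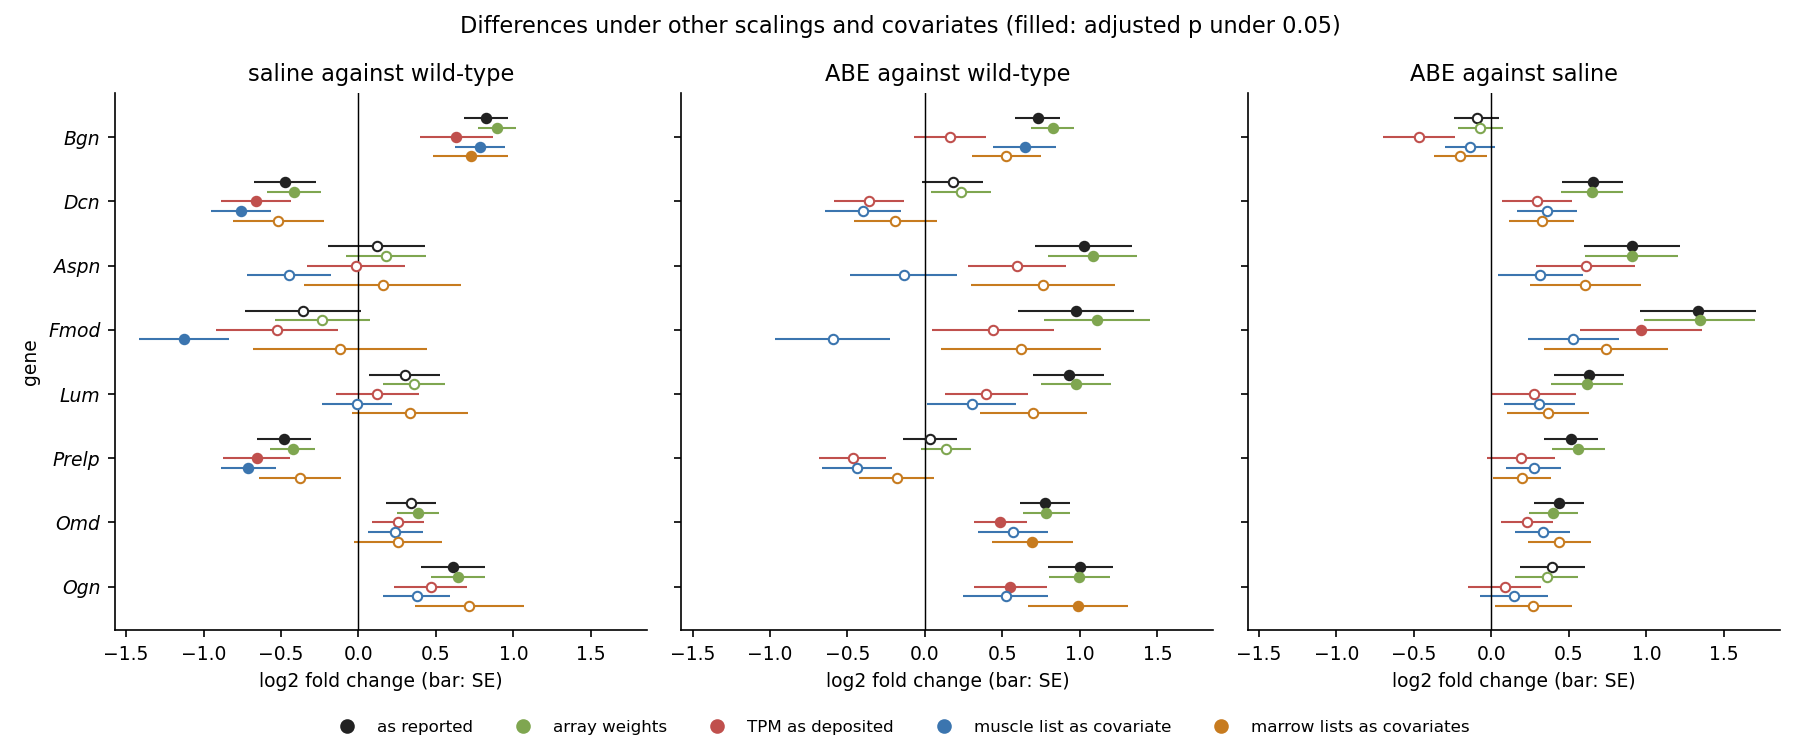
Log2 fold change with SE for the 8 members under 5 fits (as reported, array weights, TPM as deposited, and muscle or marrow marker lists as covariates), filled where the adjusted p was under 0.05. *Bgn* in saline against wild-type is filled in all 5, and in ABE against saline the muscle and marrow fits have 0 filled points.

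Ratios of 2 members within a library do not depend on the scaling. *Bgn* to *Dcn* was 1.47 to 2.5 in wild-type (median 2.03), 3.58 to 8.16 in saline-treated (median 4.59) and 1.68 to 6.44 in ABE-treated mice (median 3.15). The saline and wild-type ranges did not overlap. In ABE-treated females the ratio was 1.68 to 6.44 (median 1.98), a range that takes in that of ABE-treated males, 2.89 to 3.92 (median 3.27). The difference between these sexes was not tested. The mean log2 ratio differed by 1.35 between saline and wild-type (two-sided permutation test, p = 1e-05, the smallest that 100000 resamples can give, and 9e-05 after Benjamini-Hochberg adjustment over 9 tests), by 0.56 between ABE and wild-type (adjusted p = 0.0185) and by -0.80 between ABE and saline (adjusted p = 0.00459), all by permutation. Within females the first difference was 1.57 (exact permutation test, adjusted p = 0.0194) and within males 1.14 (exact, adjusted p = 0.00972). Within a sex the difference between ABE and saline was -1.15 in females and -0.44 in males (exact permutation tests, adjusted p = 0.078 and 0.0519).

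*Fmod* to *Lum* was 0.48 to 2.34 in wild-type (median 1.34), 0.15 to 1.52 in saline-treated (median 0.85) and 0.79 to 2.41 in ABE-treated mice (median 1.44). It differed by -0.74 on the log2 scale in saline against wild-type (permutation test, adjusted p = 0.031) and by 0.79 in ABE against saline (permutation test, adjusted p = 0.023), while ABE against wild-type gave 0.041 (permutation, adjusted p = 0.86). The lowest saline value, 0.15, belonged to a female. *Omd* to *Ogn* had medians of 0.24, 0.24 and 0.25 by group, in the order wild-type, saline, ABE, and its 3 differences were between -0.11 and 0.22 (permutation tests, adjusted p 0.26 to 0.63).

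**Figure D4:**
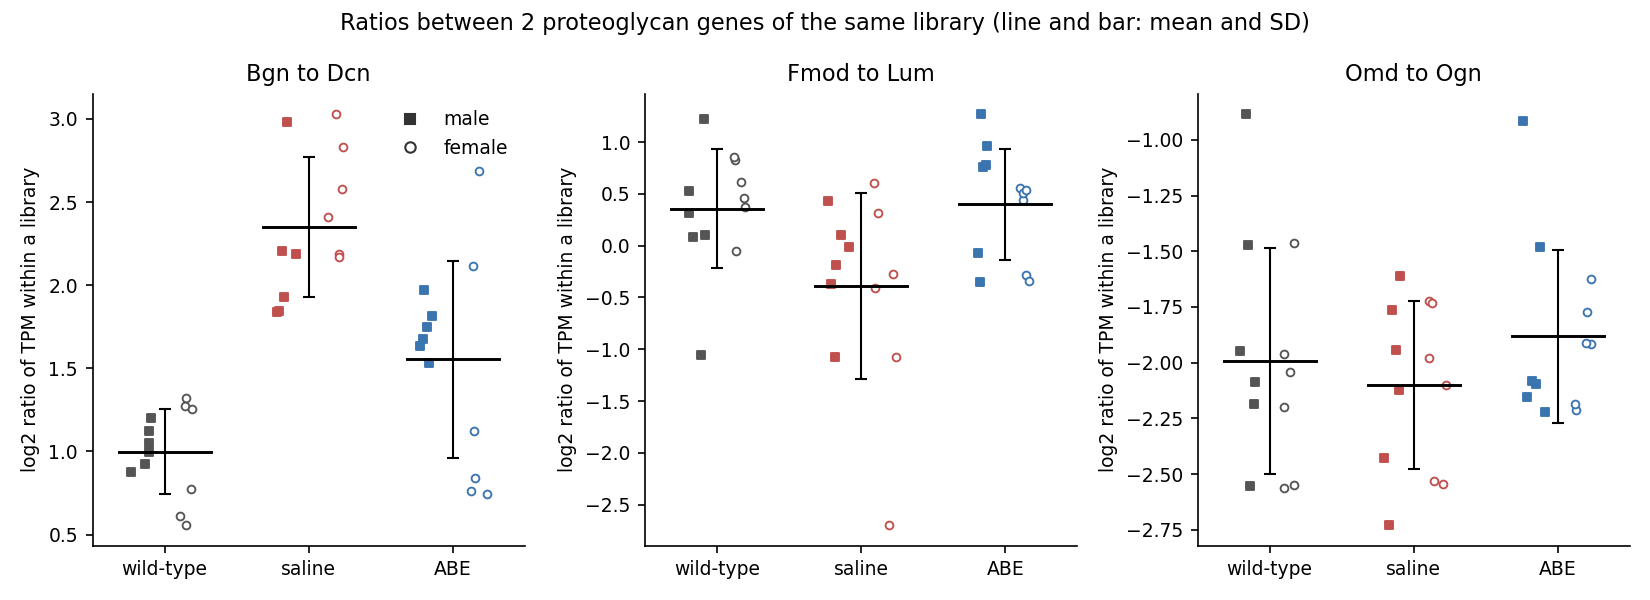
Log2 ratio of TPM of 2 members within each library (*Bgn* to *Dcn*, *Fmod* to *Lum*, *Omd* to *Ogn*) in the 12 mice of each group, squares for males and open circles for females, with mean and SD. In saline-treated mice *Bgn* to *Dcn* lies between 1.84 and 3.03, above every wild-type mouse (0.56 to 1.32).

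Saline-treated mice were also compared with wild-type within each sex. In males alone, *Bgn* (1.21), *Aspn* (0.84), *Lum* (1.03), *Omd* (0.59) and *Ogn* (1.11) were called higher and 0 of 8 lower, where 54.6% of all genes were called (4556 of 15933 higher, 4142 lower). In females alone, *Dcn* (-1.04, SE 0.30) and *Prelp* (-0.89, SE 0.22) were called lower and 0 of 8 higher, where 20.9% of all genes were called (1689 of 15933 higher, 1639 lower). The difference between the sexes of this effect (females minus males) was negative for all 8, from -2.04 for *Fmod* to -0.49 for *Omd*. It was called for *Lum* alone (-1.47, SE 0.39, adjusted p = 0.0496), beside 1.54% of all genes, and 7 of the 8 had an unadjusted p under 0.05. *Lum* measured 4.86 ± 1.31 scaled TPM in wild-type and 10.5 ± 2.68 in saline-treated males (SD, n = 6), and 7.29 ± 2.16 and 5.48 ± 2.56 in the females. With array weights, which give deviating libraries less weight, 7 of 8 were called, beside 21.7% of all genes. With the neutrophil, B cell and erythroid lists as covariates *Lum* (-1.53, adjusted p = 0.037) and *Bgn* (-1.02, adjusted p = 0.029) were called, beside 5.62% of all genes. *Lum* lost its call in 6 of the 10 alternative fits: on TPM as deposited (adjusted p = 0.53), with a pseudocount of 1 (0.051), with no filter (0.086), with a filter of 5 scaled TPM (0.076), with the skeletal muscle list (0.20), and without the 3 *LMNA* G/G libraries that have WT in the mouse number (0.061). It kept the call in 4, with adjusted p of 0.00092 to 0.046, and lost it when any of 23 single libraries was left out.

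Between ABE and saline, 5 of 8 members were called higher in females alone (*Dcn* 1.02, *Aspn* 1.43, *Fmod* 1.79, *Lum* 1.10 and *Prelp* 0.67), beside 30.4% of all genes called (2566 of 15933 higher, 2276 lower), and 0 of 8 in males alone (0 unadjusted), beside 20.5% (1589 higher, 1682 lower). The difference between the sexes of that effect was positive for all 8 (0.066 to 1.04) and called for 0 by limma (2 unadjusted, *Dcn* and *Lum*), beside 0.0565% of all genes, and for 5 with array weights, beside 11.7%. In ABE against wild-type, 6 of 8 were called higher in males (65.8% of all genes called, 5015 of 15933 higher and 5462 lower) and 2 of 8 in females (54.4% called, 4614 higher and 4048 lower), *Omd* and *Ogn*. The difference between the sexes of this effect, a test added after the data were seen, was negative for 7 of the 8 and called for 0 by limma (1 unadjusted, *Bgn* at -0.70, SE 0.25, adjusted p = 0.10), beside 3.8% of all genes. *Bgn* alone was called with array weights (-0.79, adjusted p = 0.015, beside 17.6%) and with the marrow lists (-0.96, adjusted p = 0.022, beside 9.19%). The effect of sex over all groups was called for 0 of 8 (limma, 0 unadjusted, and 0 of 10 by limma-voom), beside 0.483% of all genes, but *Bgn* (-0.56) and *Dcn* (-0.52) were called lower in females on TPM as deposited, beside 53.1%.

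**Figure D5:**
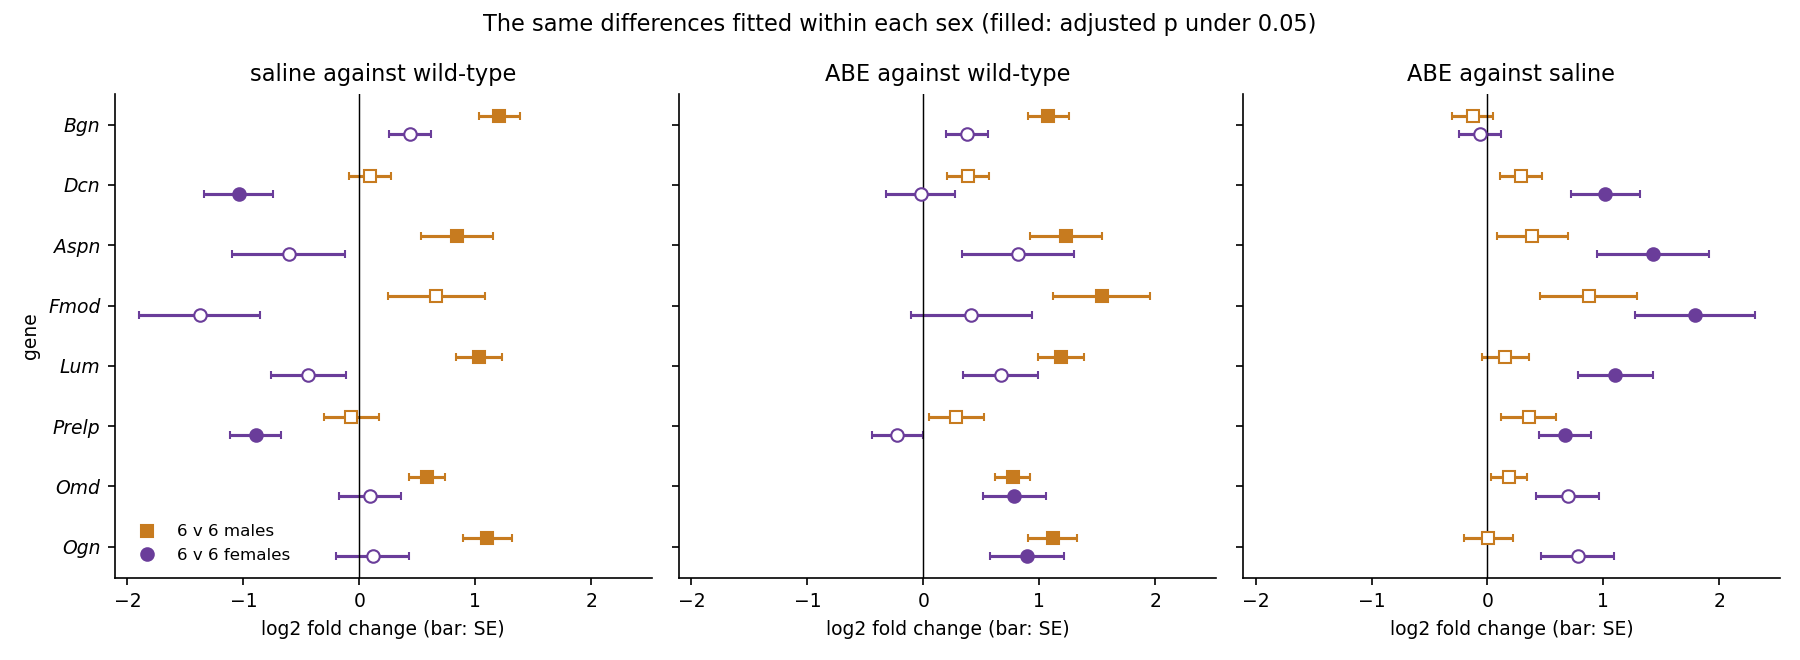
Log2 fold change with SE of the 8 members fitted in 6 against 6 males (squares) and 6 against 6 females (circles), filled where the adjusted p was under 0.05. In saline against wild-type *Lum* is at 1.03 in males and -0.44 in females, and in ABE against saline at 0.15 and 1.10.

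*Kera*, a keratan sulfate proteoglycan best known from the cornea and also made in tendon, had 9 to 184 reads in wild-type (median 41.5), 0 to 26 in saline-treated (median 8.5, 0 reads in 2 mice) and 5 to 230 in ABE-treated mice (median 80.5). All 12 saline-treated mice were below the wild-type median, and 9 of 12 ABE-treated mice above the highest saline-treated mouse. Mean scaled TPM were 0.101 ± 0.088 (SD, n = 12), 0.016 ± 0.013 and 0.199 ± 0.181. A two-sided permutation test of the difference in means gave p = 9e-05 for saline against wild-type, 0.11 for ABE against wild-type and 0.00014 for ABE against saline (0.00018, 0.11 and 0.00021 adjusted over 6 tests). By limma-voom on recovered reads the log2 fold changes were -3.04 (SE 0.85, adjusted p = 0.0029), 0.44 (SE 0.64, adjusted p = 0.54) and 3.48 (SE 0.83, adjusted p = 0.0018), beside 56.2%, 73.2% and 47.2% of 22955 genes called.

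*Epyc*, the cartilage member, had 10 to 88 reads in each wild-type mouse (386 in all), 4 reads in all in saline-treated mice (0 in 10 of them) and 28 in all in ABE-treated mice (0 in 6, and 16 in 1 female). The wild-type and saline ranges did not overlap. Mean scaled TPM were 0.051 ± 0.040 (SD, n = 12), 0.00052 ± 0.0012 and 0.0057 ± 0.013. Permutation tests gave p = 1e-05 for saline against wild-type, the smallest possible, 7e-05 for ABE against wild-type and 0.084 for ABE against saline (6e-05, 0.00018 and 0.10 adjusted). *Epyc* moved with the cartilage markers given above, of which *Prg4* (lubricin) had means of 83.2, 0.61 and 2.38 scaled TPM and *Col10a1* (of hypertrophic cartilage) 3.30, 0.034 and 0.058 in the same order. Their part in its level was not tested.

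Pairs of members, neighbours in the genome or not, deviated together from mouse to mouse once the mean of each group and sex was taken out. Over 36 libraries, Pearson's r was 0.89 for *Dcn* and *Lum* (Spearman's rho 0.89), 0.86 for *Ogn* and *Aspn* (0.86), 0.78 for *Fmod* and *Prelp* (0.85), 0.77 for *Omd* and *Ogn* (0.70) and 0.73 for *Omd* and *Aspn* (0.68). The pairs of the same class that are not neighbours gave 0.72 for *Fmod* and *Lum* (0.75) and 0.44 for *Dcn* and *Bgn* (0.47). All 7 passed permutation tests adjusted over the 7 pairs, with p of 2.33e-05 to 0.017 for r and 2.33e-05 to 0.00968 for rho. Without the 2 libraries farthest from the median of the gene named first, r was 0.51 to 0.88. Within groups r ranged widely for some pairs: *Omd* and *Aspn* gave 0.25, 0.71 and 0.86 in the order wild-type, saline, ABE, and *Dcn* and *Bgn* 0.77, 0.40 and 0.22. *Dcn* and *Lum* stayed at 0.86 to 0.95 in all 3. Pairs of genes outside the family were not tested in this way, so the values do not show anything particular to neighbours or to SLRPs. How far shared tissue in a library gives these correlations was not tested.

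Across all 36 libraries on the log2 scale, group differences included, the 3 genes most like each abundant member were found among 3939 genes whose mean reached 5 scaled TPM. For *Bgn* they were *Cdh11* (a cadherin of osteoblasts and mesenchyme, r = 0.96), *Crtap* (collagen prolyl 3-hydroxylation, 0.95) and *Mmp14* (a membrane collagenase, 0.95), of which *Mmp14* had means of 5.55, 10.4 and 9.83 scaled TPM in the order wild-type, saline, ABE. For *Fmod* they were *Thbs4* (a tendon matrix protein, 0.96), *Col3a1* (0.91) and *Nbl1* (0.89), and *Thbs4* had means of 7.46, 5.71 and 16.8. For *Lum* they were *Mmp2* (a gelatinase, 0.94), *Mxra8* (0.88) and *Col12a1* (0.88). For *Dcn* they were *Gsn* (gelsolin, 0.80), *Lum* (0.78) and *Fmod* (0.77).

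Of 8 other SLRP genes, 5 were tested, with 1 higher and 1 lower in saline, 2 higher and 1 lower in ABE against wild-type, and 3 higher and 0 lower in ABE against saline. Here and for the lists that follow, 27.7% of all genes were called higher and 24.6% lower in saline against wild-type. These shares were 35.0% and 35.2% in ABE against wild-type, and 23.2% and 25.1% in ABE against saline. Counts near them say nothing particular about a list. *Chad* (chondroadherin, of cartilage and tendon) had means of 15 ± 4.86 scaled TPM in wild-type, 1.93 ± 1.54 after saline and 9.32 ± 9.76 after ABE (SD, n = 12), and its log2 fold changes were -2.85, -1.07 and 1.78 (limma, adjusted p = 8.89e-08, 0.0092 and 0.00072). *Ecm2*, the neighbour of *Aspn*, was 0.38 higher in ABE against wild-type and 0.60 higher against saline. Its means were 0.51, 0.36 and 0.84 scaled TPM in the order wild-type, saline, ABE, and 0.57 over all mice. The ABE values thus helped it pass the limit of 0.5, so its 2 calls, counted above, are not independent of that filter. *Tsku* (tsukushi) was 0.30 higher in saline against wild-type, and *Podnl1*, with a mean of 2.79, was not called.

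The enzymes that build chondroitin and dermatan sulfate chains did not move in 1 direction. Of 21 tested, 6 were higher and 7 lower in saline, 5 and 7 in ABE against wild-type, and 3 and 4 in ABE against saline, with medians of 0.015, -0.00074 and 0.0082 beside 0.018, -0.019 and -0.016 over all genes. *Chst3* (chondroitin 6-sulfation) had log2 fold changes of -1.09 and -0.79 in saline and ABE against wild-type, and *Ust* (uronyl 2-sulfation) 0.62 and 0.76. *Chst11* and *Chst12* (chondroitin 4-sulfation) were lower in ABE against saline, at -0.35 and -0.29, and *B3gat3*, of the linker region, was not called. Of 8 genes for keratan sulfate and tyrosine sulfation, 6 were tested and 0 were higher in either comparison with wild-type, with 3 lower in saline and 4 in ABE. *Chst1* (keratan sulfate 6-sulfation) was at -0.53 and -0.44, *Chst2* at -0.24 and -0.34 and *Tpst2* (tyrosine sulfation) at -0.23 and -0.37. In ABE against saline 1 was higher and 2 lower, with *Tpst1* at 0.21, *B4galt1* at -0.20 and *Tpst2* at -0.14. The median of the list was -0.18 in saline and -0.33 in ABE against wild-type.

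Of the genes for removal of propeptides, 3 of 6 were tested, with 0 called in saline against wild-type, 2 higher and 1 lower in ABE against wild-type and 0 called in ABE against saline (limma). *Bmp1*, the protease that cuts the biglycan propeptide, was at 0.32 (adjusted p = 0.062) in saline and 0.32 (adjusted p = 0.045) in ABE against wild-type. *Pcolce*, its enhancer on procollagen, was at 0.12 (adjusted p = 0.47) and 0.38 (adjusted p = 0.011). Of 15 receptors and ligands that SLRPs bind, 6 were higher and 3 lower in saline, 8 and 4 in ABE against wild-type and 5 and 3 in ABE against saline. *Tgfb2* had the greatest log2 fold changes of the list, 1.85 and 2.21 against wild-type (means of 0.76, 4.002 and 5.34 scaled TPM), followed by *Ccn4* (a matricellular protein that binds biglycan and decorin) at 1.61 and 1.69. *Tgfb3* and *Lrp6*, a Wnt co-receptor, were 0.48 and 0.38 higher in ABE against saline. *Ccn2* was at 0.41 (adjusted p = 0.051) and 0.78, and *Lrp1*, an endocytic receptor of decorin, at -0.35 and -0.19, the last not called (adjusted p = 0.16).

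Of 10 fibrillar and associated collagens, 2 were higher and 1 lower in saline, 4 and 1 in ABE against wild-type, and 4 and 0 in ABE against saline. *Col1a1* and *Col1a2*, the chains of the main bone collagen, were not called in any of the 3 comparisons, with *Col1a1* means of 1044, 861 and 879 scaled TPM. *Col12a1*, a fibril-associated collagen of periosteum and tendon, was called higher in all 3, at 0.70, 1.26 and 0.57. *Col3a1* was at -0.61 (adjusted p = 0.075), 0.67 and 1.28. *Col14a1* was at -0.82 in saline, -0.34 in ABE against wild-type and 0.48 in ABE against saline. *Col6a3*, of the beaded filaments that biglycan and decorin bind, was at 0.41 and 0.75 against wild-type.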

How the data were processed

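The 36 columns hold TPM, which the authors deposited for 56246 genes. They aligned paired-end reads of stranded poly(A) libraries to GRCm38 with STAR (2.73a in the processing notes) and counted Gencode M24 genes with QoRTs. How TPM were calculated is not given in the sources used here. TPM came back as whole reads (within 0.01 read, for 100% of values up to 1000 reads) on gene length less 218 bp, and these reads gave the depth (a median of 78234452.5 per library) and the limma-voom alternative. The table's gene length column was used for this. No 2 libraries were duplicates. Replicate numbers follow the order of the samples, and nothing in the labels gives litters. The study calls the mice of the 3 groups littermates. Each mouse was treated as independent, so litter was not modelled and the p-values take no account of it.

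Scaled TPM are TPM divided by the library's median ratio over the 23632 genes above 0 in all libraries. limma 3.58.1 (lmFit, eBayes with trend; R 4.3.3) was run with 0.5 added before log2, and interactions of group and sex came from a fit of 6 means. Alternatives were TPM as deposited, quantile normalization, a pseudocount of 0.1 or 1, no filter or a filter of 5, no sex covariate, only the groups compared, each sex alone, array weights, marker lists as covariates, 3 libraries left out for their mouse numbers, limma-voom on genes with a mean of at least 10 reads, and each library left out. Permutation tests drew 100000 resamples and were exact within a sex. Those of *Kera* and *Epyc*, and the sex difference of ABE against wild-type, were added after the data were seen. The limma test was run on simulated data, independent normal values for each gene with known shifts added. These lack the correlation between genes and the uneven libraries of the real data, so they cannot show how reliable the calls are. The rule for names took all members, and of each pathway list the 2 most abundant genes and the 2 called genes of the greatest change in each comparison, and for members with a mean of at least 5 the 3 genes of highest correlation. *Prg4* and *Col10a1*, cartilage markers outside it, were named after their values were seen. The members and lists were chosen with earlier results of these data known. Coordinates are from GENCODE vM21, which holds 97.0% of the table's gene identifiers, and promoters from RefSeq. Python 3.11.15, numpy 2.4.6, pandas 2.3.3 and matplotlib 3.10.9 were used. The transgene and the editor were not analysed here.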

Additional observations from a re-analysis of the deposited data

Results flagged for a closer look

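*Lum* differed between the sexes in how saline-treated mice stood to wild-type: the log2 fold change of females minus that of males was -1.47 (SE 0.39, adjusted p = 0.0496, interaction term of limma). Means were 4.86 scaled TPM in wild-type and 10.5 in saline-treated males, and 7.29 and 5.48 in the females. In 23 of the 36 fits that left out 1 library the call was lost, with adjusted p up to 0.12: the libraries were wild-type replicates 1, 2, 4, 6, 7, 8, 9, 11 and 12, saline replicates 1, 4, 5, 6, 7, 9, 11 and 12, and ABE replicates 4, 7, 8, 9, 10 and 11. The value stayed between -1.64 and -1.33 in all 36. The call was also lost in 6 of 10 alternative fits: TPM as deposited (adjusted p = 0.53), a pseudocount of 1 (0.051), no filter (0.086), a filter of 5 scaled TPM (0.076), the skeletal muscle list as covariate (0.20), and without the 3 libraries that have WT in the mouse number (0.061).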

How the results depend on the processing

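Of the members, *Bgn* in saline against wild-type kept its direction in all 15 alternatives and its call in 14, with values of 0.44 (females alone, not called) to 1.21. *Fmod* in ABE against saline kept its direction in all 15 and its call in 12 (0.53 to 1.79). These directions reversed: in saline against wild-type, *Dcn* in males alone (0.092), *Aspn* on TPM as deposited (-0.015), in females alone (-0.61) and with the muscle list (-0.45), *Fmod* in males alone (0.66), and *Lum* in females alone (-0.44) and with the muscle list (-0.0080). In ABE against wild-type, *Dcn* reversed on TPM as deposited (-0.36), in females alone (-0.025), with the muscle list (-0.40) and with the marrow lists (-0.19), *Aspn* (-0.14) and *Fmod* (-0.60) with the muscle list, and *Prelp* on TPM as deposited (-0.47), under quantile normalization (-0.021), in females alone (-0.22), with the muscle list (-0.44) and with the marrow lists (-0.18). The difference between sexes of ABE against saline reversed for *Bgn* on TPM as deposited (-0.59) and without the 3 libraries with WT in the mouse number (-0.088), and for *Prelp* on TPM as deposited (-0.25). With single libraries left out, *Prelp* in ABE against wild-type ranged from -0.045 to 0.096 and the sex difference of *Bgn* from -0.034 to 0.17. The causes were not tested.

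Genes called in saline against wild-type were 8341, and 4761 on TPM as deposited, 13258 with no filter, 2060 with the filter of 5 (fewer genes tested), 3328 in females alone, 4997 with the marrow lists and 12897 by limma-voom, and 7757 to 8882 with single libraries left out. In ABE against wild-type they were 11189, and 19277 with no filter, 2624 with the filter of 5, 5365 with the muscle list, 7334 with the marrow lists and 16811 by limma-voom (10977 to 11402 with single libraries left out). In ABE against saline they were 7702, and 1786 with the filter of 5, 4842 in females, 3271 in males, 1470 with the muscle list and 1205 with the marrow lists (6726 to 8475). On TPM as deposited 21.7%, 13.4% and 7.58% of the calls were higher in the 3 comparisons, against 52.9%, 49.8% and 48.0% after scaling. The difference between sexes of saline against wild-type called 245 genes, and 0 on TPM as deposited, 395 under quantile normalization, 137 with a pseudocount of 1, 2 with no filter, 7 with the filter of 5, 3457 with array weights, 1 with the muscle list, 895 with the marrow lists and 0 without the 3 libraries with WT in the mouse number (0 to 1262 with single libraries left out; 3652 genes had an unadjusted p under 0.05). The difference between sexes of ABE against saline called 9, and 0 under quantile normalization, 0 with no filter, 3 with the filter of 5, 1871 with array weights, 19 with the muscle list, 522 with the marrow lists and 647 without those 3 libraries (0 to 216; 2515 unadjusted). The difference between sexes of ABE against wild-type, added later, called 605, and 383 with no filter, 36 with the filter of 5, 2807 with array weights, 1109 with the muscle list and 1465 with the marrow lists (187 to 1334). In female against male 77 genes were called, and 8558 on TPM as deposited.

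The ratio of *Bgn* to *Dcn* lost its call in females alone in ABE against wild-type (0.41) and in either sex alone in ABE against saline (-1.15 and -0.44). *Fmod* to *Lum* lost it in females and males alone in saline against wild-type (-1.10 and -0.39) and in ABE against saline (0.82 and 0.75), each with 6 mice a group. Uncalled ratios reversed for *Fmod* to *Lum* in ABE against wild-type in females (-0.28) and for *Omd* to *Ogn* in saline in females (0.028) and in ABE against wild-type with 0.5 added to TPM (-0.065). No paired analysis was possible because the replicate numbers are not given by the labels. The filter of 5 left *Aspn*, *Prelp*, *Omd* and *Ogn* untested. At 4 to 386 reads a group, *Epyc* is the member whose values depth limits most, followed by *Kera*.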
